A study of Mus musculus with 30 samples.

Results

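The replication-independent histone variants were read from the gene count table as 9 named rows, H2az1, H2az2, H2ax, H2aj, Macroh2a1, Macroh2a2, H3f3a, H3f3b and H1f0. The first 6 also go by the older names H2afz, H2afv, H2afx, H2afj, H2afy and H2afy2. The 9 genes were found among 55487 genes, and all 9 were among the 15907 genes that passed the filter on low counts. The genes were chosen by the protein each encodes, with earlier results of these data in view. The measured value known of a member was the higher H2aj in MET than in SD, so that difference is given as a description, and its call is counted with nothing read from it.

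RNA was sequenced from C2C12 myotubes, the multinucleated muscle cells that form when this wild-type mouse myoblast line is grown to confluence and held in low serum. All cultures were differentiated for 4 days in low glucose medium with 2% horse serum, and were then treated for 4 days, giving 8 days in all. The 2% HS group stayed in that medium, the SD group had serum withdrawn, and the other 3 groups had serum withdrawn with 100 nM metformin (MET), 500 nM leucine (LEU) or both at those doses (MET+LEU). Each group had 6 replicates from a single cell line, and the labels do not say whether these were separate cultures, so that p-values measure the spread between these samples only.

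Most histones are made in S phase from clustered genes whose mRNAs end in a stem-loop instead of a poly(A) tail, and they package newly copied DNA. Replication-independent variants are made throughout the cell cycle and after cell cycle exit, and they are the histones that a myonucleus, which no longer replicates its DNA, can still place into chromatin. H3.3 marks active genes and is made from both H3f3a and H3f3b. H2A.Z sits at promoters, H2A.X is phosphorylated beside DNA breaks, macroH2A is enriched in silent chromatin, H2A.J has been linked to senescent cells, and H1.0 is the linker histone of differentiated cells. H2ax is an intermediate case, since it makes both a stem-loop mRNA and a polyadenylated one.

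Gene positions are those of GENCODE M21 on GRCm38 and cover the whole gene. Libraries held between 12784960 and 19604103 counts, and member genes between 44 and 4792 counts in a library. Levels are given as CPM, the count of a gene scaled to a common library size after correction by TMM, the trimmed mean of M-values. MET+LEU replicate 6 stood apart, with 5.85% of its counts on nuclear rRNA genes and 7.64% on mitochondrial rRNA genes, against at most 1.96% and 0.76% in any other library. Fold changes without it are given for the called results of H3f3b, H2az1 and H2ax, and for other called results where leaving it out ended the call or moved the value by over 1.5 times. All 8 myotube markers were detected in every library, with Acta1, skeletal alpha actin, between 2640 and 3840 CPM. Of the 8 markers of cells the cultures should lack, Snap25 was at 0 in all 30 libraries, Epcam was at 0 in 29, Ptprc was at 0 in 27, and the highest level of any was 3.72 CPM for Cd68. The satellite cell factor Pax7 lay between 131 and 196 CPM and the cycling marker Mki67 between 52.6 and 98.7 CPM, so the cultures also held transcripts of undifferentiated and cycling cells. In such bulk RNA, fewer cells of a type and less RNA per cell cannot be told apart.

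Both H3.3 genes encode the same protein from different codons, and the H2A.Z genes encode nearly the same one. How far the members of each pair differ in their mRNA decides whether reads can be told apart, so the first 150 coding bases of each are shown from the GENCODE M21 transcripts, with the bases that differ from the paralog in capitals.
H3f3a: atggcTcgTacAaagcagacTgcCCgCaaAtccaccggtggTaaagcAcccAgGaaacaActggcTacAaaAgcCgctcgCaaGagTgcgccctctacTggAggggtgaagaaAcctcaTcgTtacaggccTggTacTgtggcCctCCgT
H3f3b: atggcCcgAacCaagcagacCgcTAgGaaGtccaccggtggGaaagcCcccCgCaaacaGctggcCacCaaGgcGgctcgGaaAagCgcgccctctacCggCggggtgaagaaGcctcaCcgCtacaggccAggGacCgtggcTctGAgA
H2az1: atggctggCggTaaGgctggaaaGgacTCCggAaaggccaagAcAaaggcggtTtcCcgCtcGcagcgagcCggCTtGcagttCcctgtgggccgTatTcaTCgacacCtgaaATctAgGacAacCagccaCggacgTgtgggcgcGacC
H2az2: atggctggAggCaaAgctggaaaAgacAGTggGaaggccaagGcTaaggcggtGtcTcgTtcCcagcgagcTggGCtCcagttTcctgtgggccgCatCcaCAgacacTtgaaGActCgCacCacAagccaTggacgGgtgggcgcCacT
Over the whole coding sequence, H3f3a and H3f3b differed at 95 of 411 bases (76.9% identity) and H2az1 and H2az2 at 81 of 387 (79.1% identity). The longest stretch without a difference in any of the shown pairs was 23 bases for H3.3, much shorter than the 150-base reads. Retrocopies were closer. A search of the annotated transcripts found 15 pseudogenes of H3f3a in the count table, with summed counts of 22 to 60 per library, at most 1.64% of those of H3f3a. The pseudogene Gm8203 matched all 387 coding bases of H2az1 at 100% identity and carried 4 to 25 counts per library, and a further H2az1 pseudogene, Gm6722, carried 0 to 8. H3f3b had 1 pseudogene in the count table (96.8% identity over 405 bases), with 0 to 4 counts per library. Macroh2a2 also had 1 (95.9% over 1122 bases), with 0 to 1. How reads matching several genes were counted is not given in the sources used here. The levels of H2az1, H3f3a, H3f3b and Macroh2a2 are therefore uncertain. The pseudogene counts do not give the size of this, since reads left uncounted would be in neither gene.

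**Figure D1:**
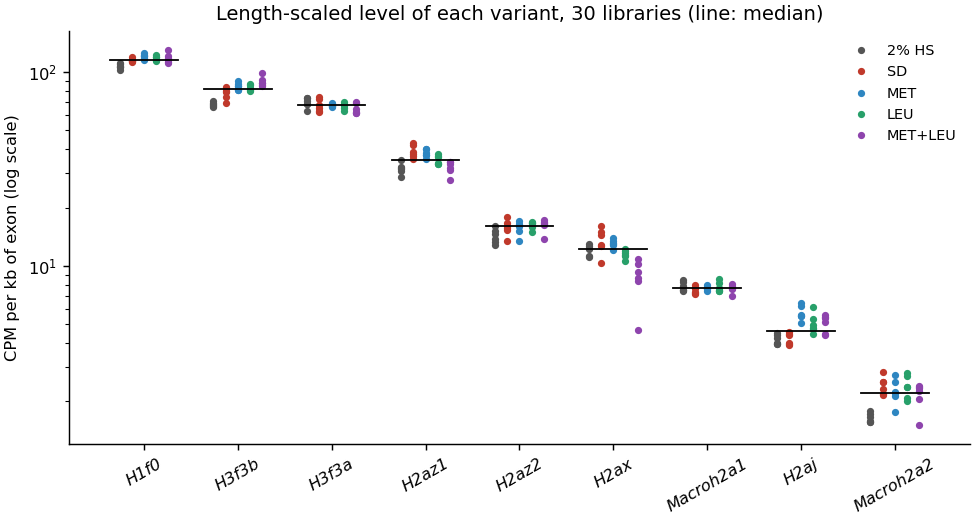
Level of each variant in each of the 30 libraries, in CPM per kilobase of exon on a log axis, coloured by group, with the median over libraries as a line. H1f0 had the highest median, 116 CPM per kb, and Macroh2a2 the lowest, 2.22 CPM per kb.

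Levels were compared between genes per kilobase of exon. The length used was that of all annotated exons of a gene together, 6809 bases for Macroh2a1 and 1384 for H2ax. The order of genes depends on it: in CPM alone, Macroh2a1 was above H2ax (means of 51.1 and 18.8 in SD). H1f0 had the highest median over the 30 libraries, 116 CPM per kb (range 103 to 130), and its range did not touch that of the next gene, H3f3b, at 81.9 (66.3 to 98.5). H3f3a followed at 67.6 (61.3 to 74.1), and the ranges of both H3.3 genes overlapped. H2az1 was at 35.3 (27.6 to 42.9), clear of its neighbours. H2az2 at 16.1 (12.8 to 17.9) and H2ax at 12.2 (4.68 to 16) overlapped, as did H2ax and Macroh2a1, which was at 7.69 (7 to 8.56). H2aj at 4.62 (3.9 to 6.4) lay below Macroh2a1 in every library and above Macroh2a2 at 2.22 (1.51 to 2.82). The group means spread most for H2ax, by 0.67 on the log2 scale, and least for Macroh2a1, by 0.06.

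**Figure D2:**
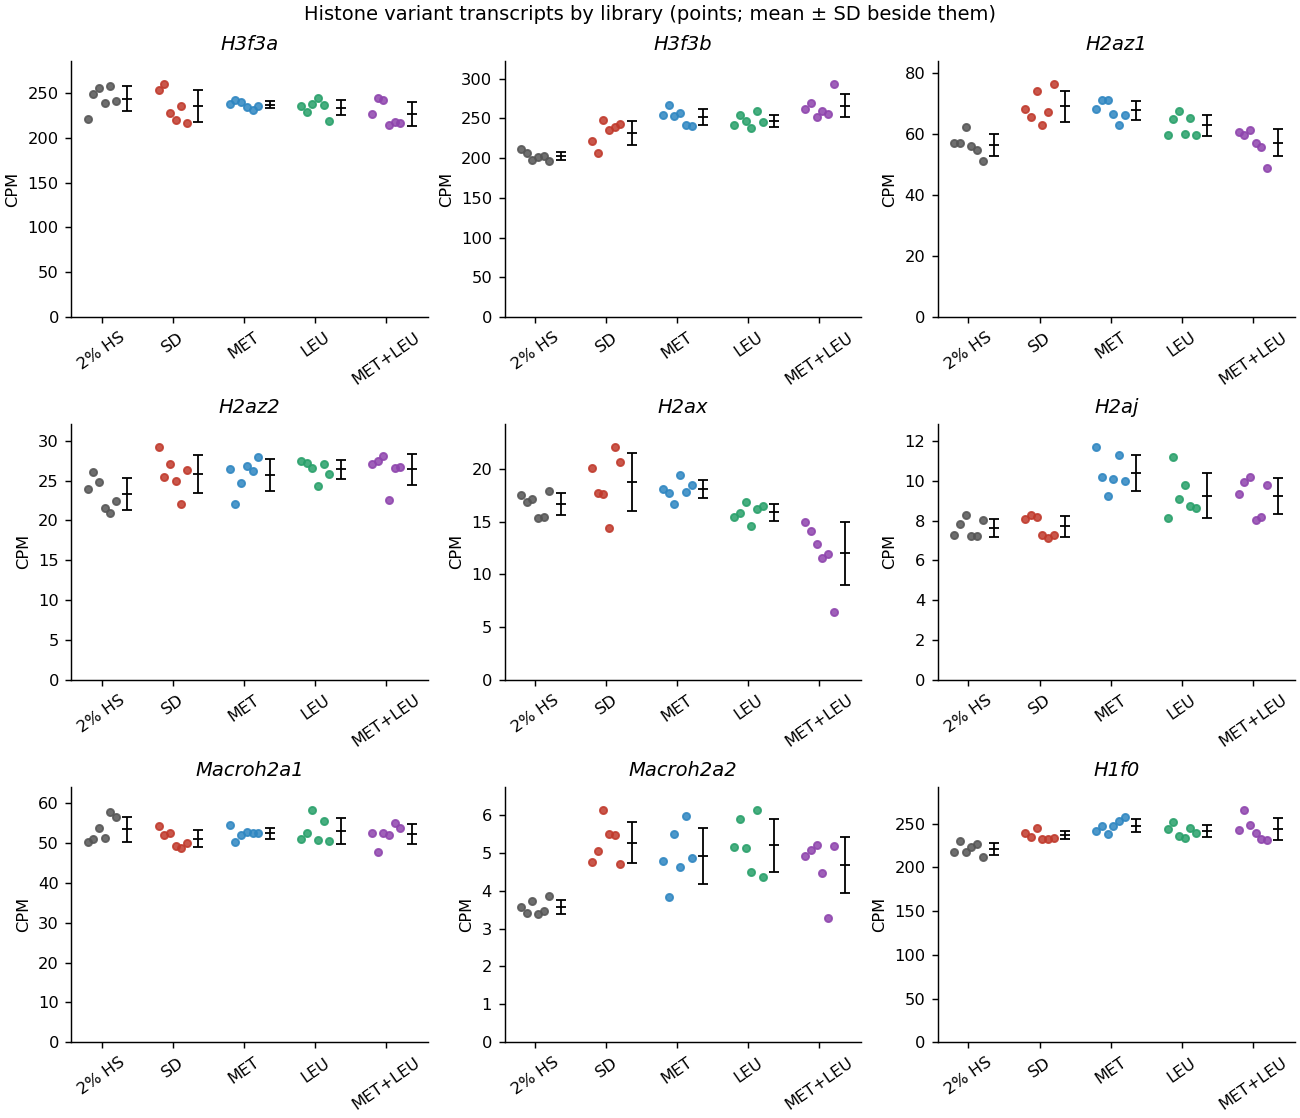
CPM of each of the 9 variants in every library, 1 panel per gene with the axis from 0, and the mean ± SD of 6 replicates beside the points. H3f3b was lowest in 2% HS (197 to 211 CPM) and highest in MET+LEU (252 to 293), while H2ax was lowest in MET+LEU (6.47 to 15).

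Serum withdrawal, the atrophy stimulus of the study, was compared with 2% HS first. In SD, 4 of the 9 variants were higher and 0 were lower (H2az1, Macroh2a2, H3f3b and H1f0), by the quasi-likelihood test of edgeR at a Benjamini-Hochberg adjusted p of 0.05. Of all genes tested, 27.8% were called and 13.9% were called higher. For 3 of the 9 variants the SD and 2% HS libraries did not overlap, as for 13.6% of all genes. The median log2 fold change was 0.16 over the 9 variants and 0.00 over all genes. Metformin and leucine were then compared with SD, singly and together. With MET+LEU, 2 variants were higher (H3f3b and H2aj) and 2 lower (H2ax and H2az1), where 18.4% of all genes were called, 10.6% higher and 7.8% lower. Of these calls, 57.7% were higher, or 48.2% with upper-quartile scaling. The medians were 0.03 for the variants and -0.01 for all genes. Libraries of MET+LEU and SD did not overlap for 2 variants and for 5.34% of all genes. MET called 1 variant, H2aj, with 0.157% of all genes called, a comparison from which nothing is read because H2aj was known from it. LEU called 0 variants with 0.553% of all genes called, and DESeq2 and limma-voom also called 0. An unadjusted p under 0.05 was found for 4 of the 9 variants (H2az1, H2ax, H2aj and H3f3b) and for 9.98% of all genes. For H2aj, MET+LEU vs. SD and LEU vs. SD share the SD libraries with the difference by which it was known and are not independent of it. The H2aj call in MET+LEU vs. SD held under 9 of 20 alternatives.

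**Figure D3:**
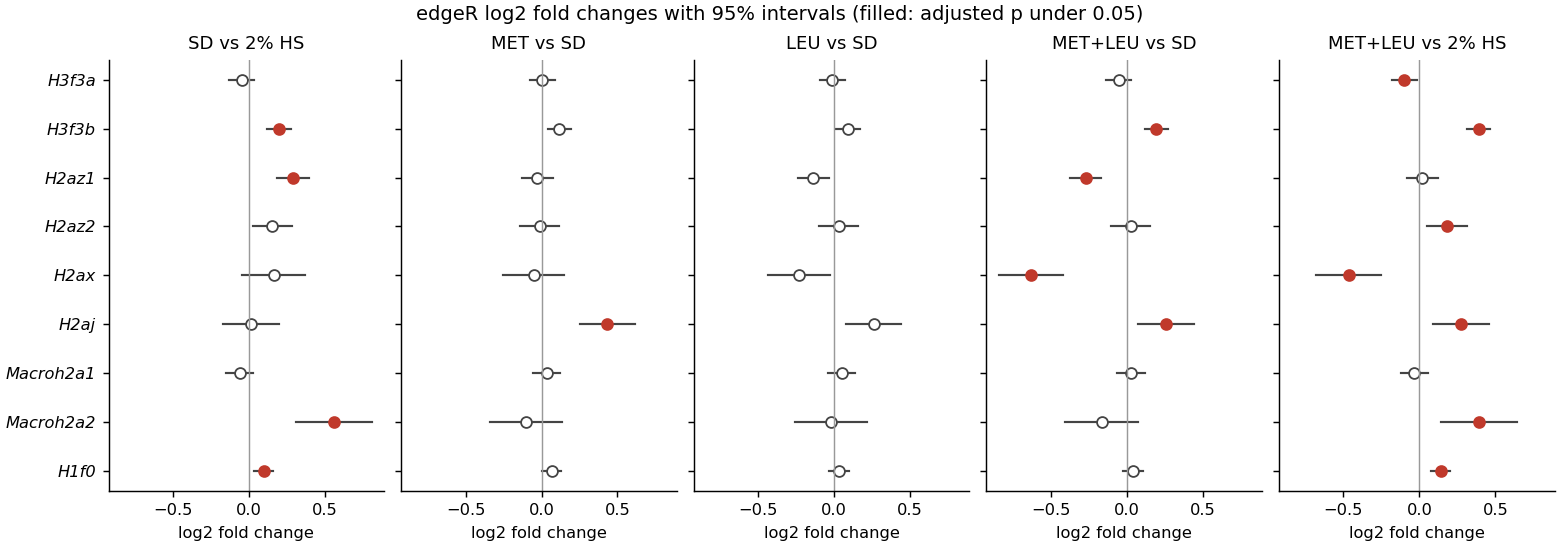
Log2 fold change of each variant (points) with its 95% interval (lines) in 5 comparisons, from the edgeR model of all 30 libraries, with filled points for an adjusted p under 0.05. H3f3b lay to the right of 0 in all 5, whereas H2az1 was higher in SD vs. 2% HS (0.29) and lower in MET+LEU vs. SD (-0.27).

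H3f3b (ENSMUSG00000016559, chr11:116021912-116027962, minus strand), 1 of the H3.3 genes, was higher in SD than in 2% HS and higher again with MET+LEU. Its lowest, median and highest values were 197, 202 and 211 CPM in 2% HS and 207, 237 and 248 CPM in SD. They were 240, 253 and 267 CPM with MET, 238, 246 and 259 CPM with LEU, and 252, 261 and 293 CPM with MET+LEU. The MET+LEU libraries all lay above every SD library and above every 2% HS library, and SD overlapped 2% HS at its lowest library. H3f3b was 14.7% higher in SD vs. 2% HS (log2 fold change 0.20 ± 0.04 SE, edgeR adjusted p = 5.32e-05, all 6 SD libraries above the 2% HS median). It was 14.3% higher in MET+LEU vs. SD (0.19 ± 0.04, edgeR adjusted p = 0.000239) and 31.1% higher in MET+LEU vs. 2% HS (0.39 ± 0.04, edgeR adjusted p = 7.14e-12). Without MET+LEU replicate 6, its highest library, these were 0.16 (adjusted p = 0.00114) and 0.35 (adjusted p = 2.78e-12). Beside the last comparison, 42.3% of all genes were called. MET and LEU alone differed from SD by 0.12 (edgeR adjusted p = 0.212) and 0.09 (adjusted p = 0.357), which did not pass.

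H3f3a (ENSMUSG00000060743, chr1:180800832-180813943, minus strand), which encodes the same H3.3 protein, passed the test in 1 comparison of 8. It lay between 221 and 258 CPM in 2% HS, 217 and 260 CPM in SD, 231 and 242 CPM with MET, 219 and 245 CPM with LEU and 215 and 245 CPM with MET+LEU, so all groups overlapped. In SD vs. 2% HS its log2 fold change was -0.05 (95% interval -0.13 to 0.04), and in MET+LEU vs. SD it was -0.05 (-0.14 to 0.03). Only MET+LEU vs. 2% HS passed, with -0.10 ± 0.04 SE (edgeR adjusted p = 0.0425), and this call was lost without 2% HS replicate 3 or 5 or MET+LEU replicate 4 or 5, with an adjusted p of up to 0.116 without 2% HS replicate 5, and with no filter on low counts (adjusted p = 0.0571). The direction of H3f3a against 2% HS held under each scaling tried.

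**Figure D4:**
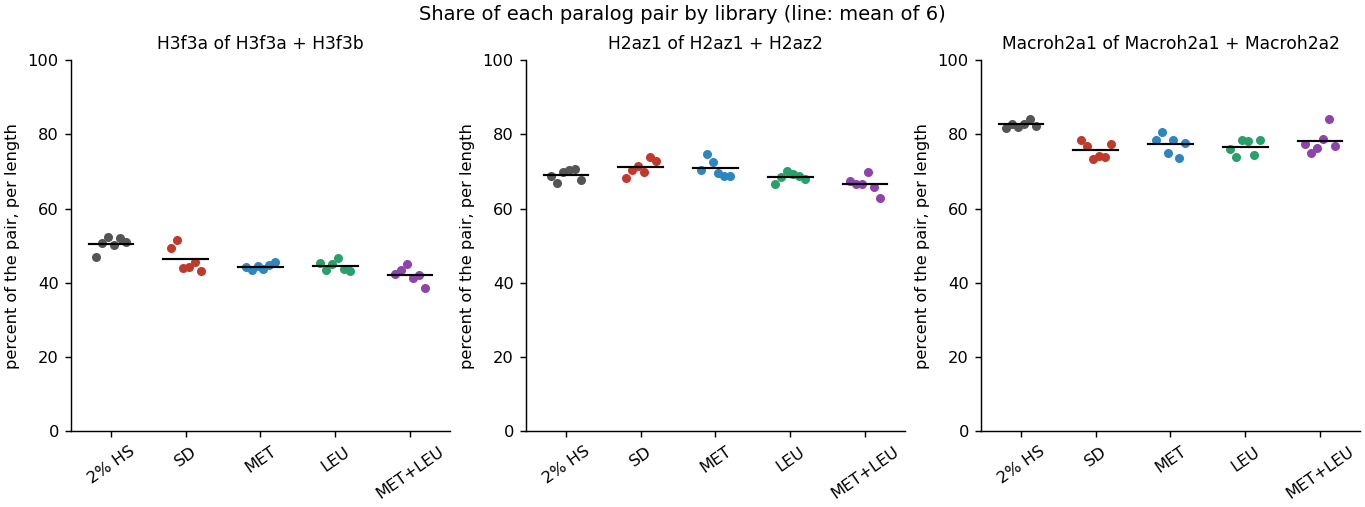
Share of the first-named gene in its paralog pair in each library, in percent of the pair's CPM per kilobase of exon, by group, with the mean of 6 replicates as a line. The H3f3a share ran from a mean of 50.5% in 2% HS to 42.1% in MET+LEU.

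The share of H3f3a in the H3.3 transcripts, counted per kilobase, was 50.5% ± 1.89 (SD, n = 6) in 2% HS, 46.3% ± 3.39 in serum-deprived cultures, 44.4% ± 0.741 with MET, 44.5% ± 1.32 with LEU and 42.1% ± 2.19 in MET+LEU. All MET, LEU and MET+LEU libraries (at most 46.6%) lay below the lowest 2% HS library (47%), while the SD libraries (43.2% to 51.6%) overlapped all groups. The sum of both genes, not divided by length, was 447 ± 11.2 CPM in 2% HS, 468 ± 9.19 CPM in SD and 493 ± 17.1 CPM in MET+LEU. These shares were given no test, because the pairs were made of chosen genes.

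H2az1 (ENSMUSG00000037894, chr3:137864487-137866922, plus strand), the main H2A.Z gene, rose with serum withdrawal and fell with MET+LEU. Its lowest, median and highest values were 51, 56.6 and 62.3 CPM in 2% HS and 63, 67.7 and 76.3 CPM in SD. They were 63, 67.4 and 71.3 CPM with MET, 59.6, 62.5 and 67.5 CPM with LEU, and 49, 58.2 and 61.2 CPM in MET+LEU. Every SD and MET library was above every 2% HS and MET+LEU library, and the LEU libraries overlapped every other group. H2az1 was 22.3% higher in SD vs. 2% HS (log2 fold change 0.29 ± 0.05 SE, edgeR adjusted p = 1.34e-05). It was lower in MET+LEU vs. SD (-0.27 ± 0.05, edgeR adjusted p = 0.000166) and in MET+LEU vs. MET (-0.24 ± 0.05, edgeR adjusted p = 0.0023), where 8.69% of all genes were called. Without MET+LEU replicate 6, its lowest library, these were -0.24 (adjusted p = 0.000352) and -0.21 (adjusted p = 0.0043). MET+LEU and 2% HS differed by 0.02 (95% interval -0.08 to 0.13). SD vs. 2% HS and MET+LEU vs. SD share the SD libraries and are not independent.

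H2az2 (ENSMUSG00000041126, chr11:6427229-6444443, minus strand), its less abundant paralog, had medians of 23.2 CPM in 2% HS, 25.9 CPM in SD, 26.3 CPM with MET, 26.8 CPM with LEU and 26.9 CPM in MET+LEU. The groups overlapped. In SD vs. 2% HS the log2 fold change was 0.16 ± 0.07 SE (edgeR adjusted p = 0.0705), which passed without 2% HS replicate 2 (adjusted p = 0.0367) or without SD replicate 5 (adjusted p = 0.021). In MET+LEU vs. SD it was 0.03 (95% interval -0.10 to 0.16). MET+LEU vs. 2% HS passed (0.18 ± 0.07, edgeR adjusted p = 0.0217), but not when 2% HS replicate 4, 5 or 6 or MET+LEU replicate 1, 2 or 3 was left out, with an adjusted p of up to 0.079 without 2% HS replicate 4. The H2az1 share of the pair per kilobase was 69% ± 1.58 in 2% HS, 71.1% ± 2.01 in SD, 70.8% ± 2.42 with MET, 68.6% ± 1.2 with LEU and 66.5% ± 2.28 in MET+LEU (SD, n = 6), with overlap between all groups.

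The 250 bases before each start site are shown for this pair, of which H2az1 was called in MET+LEU vs. SD and H2az2 was not, a difference between them that was not tested. They come from RefSeq (GRCm38.p6, on the strand of the gene), with CCAAT boxes (CCAAT, or ATTGG on the other strand) in capitals. The H2az1 window is chr3:137864237-137864486 on the plus strand, in part within an exon of the antisense transcript Gm43403, and the H2az2 window is chr11:6444444-6444693 on the minus strand.
H2az1: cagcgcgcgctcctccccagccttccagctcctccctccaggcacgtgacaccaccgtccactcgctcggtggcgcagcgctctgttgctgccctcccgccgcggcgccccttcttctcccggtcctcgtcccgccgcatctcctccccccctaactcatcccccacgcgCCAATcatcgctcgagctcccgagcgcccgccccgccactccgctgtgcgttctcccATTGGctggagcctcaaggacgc
H2az2: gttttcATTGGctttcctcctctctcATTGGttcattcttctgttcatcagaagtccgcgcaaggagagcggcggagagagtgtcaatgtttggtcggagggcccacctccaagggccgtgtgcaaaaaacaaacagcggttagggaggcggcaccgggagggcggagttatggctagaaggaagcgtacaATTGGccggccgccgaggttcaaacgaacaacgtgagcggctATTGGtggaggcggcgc
The H2az1 window held 2 CCAAT boxes and the H2az2 window 4. Of the other members, the H3f3b window held 4, H2aj 3, H3f3a 1, and Macroh2a1, Macroh2a2 and H1f0 0. These windows precede the RefSeq start, which is not always the outer end of the GENCODE gene. Those of H3f3b (chr11:116024505-116024754), H3f3a, Macroh2a1 and Macroh2a2 lie within the GENCODE span of their genes. That of H2aj overlaps the first bases of its gene. H2ax was not matched in the promoter table. Among 32851 RefSeq promoter windows of the same length, 33.8% held at least 1 CCAAT box and 2.79% held 3 or more. The E2F letters TTTCCCGC or TTTGGCGC, read on both strands, were in 0 of the 8 windows, against 1.3% of all windows.

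H2ax (ENSMUSG00000049932, chr9:44334694-44336077, plus strand), which encodes the variant phosphorylated at DNA breaks, showed the largest fall of the 9 genes with MET+LEU. Its lowest, median and highest values were 15.4, 17.1 and 17.9 CPM in 2% HS and 14.4, 18.9 and 22.1 CPM in SD. They were 16.7, 18 and 19.4 CPM with MET, 14.6, 16 and 16.9 CPM with LEU, and 6.47, 12.4 and 15 CPM in MET+LEU. All MET+LEU libraries were below every 2% HS and every MET library, and overlapped SD at its lowest library and LEU at its lowest. MET+LEU replicate 6, the library rich in rRNA, was the lowest at 6.47 CPM. The log2 fold change in MET+LEU vs. SD was -0.63 (95% interval -0.84 to -0.42, edgeR adjusted p = 4.45e-05) and -0.52 without that library (adjusted p = 3.94e-06). Against 2% HS it was -0.47 (edgeR adjusted p = 0.000446), or -0.36 without replicate 6 (adjusted p = 0.000277), and against MET it was -0.58 (edgeR adjusted p = 0.00056), or -0.47 without it (adjusted p = 0.000102).

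Against LEU, where 6.27% of all genes were called and 1.67% were called lower, H2ax was the 1 variant that passed, lower in MET+LEU by a log2 fold change of -0.40 (95% interval -0.61 to -0.18, edgeR adjusted p = 0.0208). Without MET+LEU replicate 6 it was -0.29 (adjusted p = 0.0366). The call was lost without LEU replicate 3 (adjusted p = 0.0533) and in a model of only those groups (adjusted p = 0.0988). LEU alone vs. SD gave -0.23 (edgeR adjusted p = 0.403) and SD vs. 2% HS gave 0.16 (adjusted p = 0.243). The interaction of MET and LEU, the test of whether the combination departs from the sum of the single agents on the log2 scale, gave -0.35 for H2ax (95% interval -0.64 to -0.05, edgeR adjusted p = 0.466), or -0.24 without replicate 6 (adjusted p = 0.583), and did not pass. Over the 30 libraries, the genes whose log2 CPM followed H2ax most closely were Maz, a zinc finger transcription factor (Pearson r = 0.891), Plk1, a mitotic kinase (0.868), and Scamp4, a membrane trafficking protein (0.853). These r are descriptions over libraries that share depth, group and, for replicate 6, an rRNA-rich composition, and without that library they were 0.745, 0.791 and 0.667.

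H2aj (ENSMUSG00000060032, chr6:136808244-136810074, plus strand), which encodes H2A.J, had much the same level in 2% HS and SD and higher median levels in the treated groups. Its lowest, median and highest values were 7.22, 7.55 and 8.28 CPM in 2% HS and 7.15, 7.69 and 8.29 CPM in SD. They were 9.25, 10.1 and 11.7 CPM with MET, 8.11, 8.91 and 11.2 CPM with LEU, and 8.02, 9.57 and 10.2 CPM in MET+LEU. The MET libraries all lay above those of SD and 2% HS, while LEU and MET+LEU overlapped SD. MET was 35.1% above SD, the difference by which the gene was known. MET+LEU was 19.5% above SD (log2 fold change 0.26 ± 0.09 SE, edgeR adjusted p = 0.038), with all 6 libraries above the SD median. That call was lost without MET+LEU replicate 1, 2, 3 or 6 or SD replicate 1, 4, 5 or 6, with an adjusted p of up to 0.0906 without MET+LEU replicate 3. Without MET+LEU replicate 6 the log2 fold change was 0.24 (edgeR adjusted p = 0.0897). The call was also lost with limma-voom (adjusted p = 0.105), with no filter on low counts (adjusted p = 0.13) and in a model of only those groups (adjusted p = 0.0823). MET+LEU vs. 2% HS was 0.27 ± 0.09 (edgeR adjusted p = 0.0123) and passed under all 20 alternatives, the highest adjusted p being 0.045. LEU vs. SD was 0.26 (edgeR adjusted p = 0.225), which did not pass. MET+LEU vs. SD and LEU vs. SD share the SD libraries with the difference by which the gene was known and are not independent of it. The interaction, which contains that difference, was -0.44 and is given as a description.

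Macroh2a2 (ENSMUSG00000020086, chr10:61738665-61784147, minus strand), the rarer of the macroH2A genes, was lowest in 2% HS. Its lowest, median and highest values were 3.39, 3.52 and 3.87 CPM there and 4.7, 5.25 and 6.13 CPM in SD. They were 3.82, 4.82 and 5.96 CPM with MET, 4.37, 5.14 and 6.12 CPM with LEU, and 3.29, 4.99 and 5.19 CPM in MET+LEU. Every SD library was above every 2% HS library, and MET+LEU overlapped 2% HS through replicate 5. Macroh2a2 was 47.2% higher in SD vs. 2% HS (log2 fold change 0.56 ± 0.12 SE, edgeR adjusted p = 0.000399) and 31.2% higher in MET+LEU vs. 2% HS (0.39 ± 0.13, edgeR adjusted p = 0.00975). MET+LEU vs. SD gave -0.17 (95% interval -0.41 to 0.07), which did not pass. The counts behind these values were 44 to 97 per library. Aifm2, a ferroptosis suppressor gene, shares 233 exonic bases with Macroh2a2 on the opposite strand and held 139 to 295 counts. The libraries were stranded, but the strand setting of the counting is not given in the sources used here. Aifm2 had a log2 fold change of -0.17 in SD vs. 2% HS (edgeR adjusted p = 0.182), and the part of its reads in the Macroh2a2 values was not tested. The genes most like Macroh2a2 over the 30 libraries were Sparc, a matricellular protein (r = 0.772), Serpinh1, the collagen chaperone (0.759), and Pgr, the progesterone receptor (0.759).

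Macroh2a1 (ENSMUSG00000015937, chr13:56073619-56136361, minus strand), the main macroH2A gene, had the narrowest spread of group means. Its medians were 52.5 CPM in 2% HS, 51.1 CPM in SD, 52.5 CPM with MET, 51.7 CPM with LEU and 52.5 CPM in MET+LEU, and no comparison passed. The difference was -0.06 in SD vs. 2% HS (95% interval -0.15 to 0.03) and 0.03 in MET+LEU vs. SD (-0.06 to 0.12). Its share of the macroH2A transcripts per kilobase was 82.7% ± 0.845 in 2% HS and 75.6% ± 2.12 in serum-deprived cultures (SD, n = 6), and the groups did not overlap (81.8% to 84.2% and 73.3% to 78.5%). The share was 77.3% ± 2.54 with MET, 76.6% ± 2.13 with LEU and 78.1% ± 3.25 in MET+LEU.

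H1f0 (ENSMUSG00000096210, chr15:79028450-79030504, plus strand), the linker histone gene, was the most abundant variant per kilobase of exon. In CPM, the mean of H3f3a was higher than that of H1f0 in 2% HS (244 against 221). The mean of H3f3b was higher in MET+LEU (266 against 244). H1f0 was slightly lower in 2% HS than elsewhere. It lay between 212 and 230 CPM in 2% HS, 233 and 245 CPM in SD, 238 and 258 CPM with MET, 234 and 252 CPM with LEU and 231 and 266 CPM with MET+LEU. No library without serum overlapped 2% HS. H1f0 was 6.98% higher in SD vs. 2% HS (log2 fold change 0.10 ± 0.03 SE, edgeR adjusted p = 0.0191), a call lost without 2% HS replicate 6 (adjusted p = 0.0651) or SD replicate 3 (adjusted p = 0.0553), or with no filter on low counts (adjusted p = 0.0691). It was 10.1% higher in MET+LEU vs. 2% HS (0.14 ± 0.03, edgeR adjusted p = 0.000456). In MET+LEU vs. SD it differed by 0.04 (95% interval -0.02 to 0.11).

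MET+LEU was also set against 2% HS, the state without the atrophy stimulus. There, 5 variants were higher (H3f3b, Macroh2a2, H2aj, H2az2 and H1f0) and 2 lower (H2ax and H3f3a), where 22.1% of all genes were higher and 20.3% lower, with medians of 0.14 over the variants and -0.01 over all genes. Of the calls over all genes, 52.1% were higher, or 45.4% with upper-quartile scaling. In 3 of the 9 variants the libraries of the groups did not overlap, where this held for 21% of all genes. MET+LEU vs. MET called 2 lower variants, where 3.15% of all genes were called lower, and both had libraries that did not overlap, as had 3.77% of all genes. The interaction called 0 of 9 with 0.0503% of all genes called. An unadjusted interaction p under 0.05 was found for 2 of the 9, H2ax and H2aj, whose interaction contains the difference by which it was known, and for 8.73% of all genes. Here limma-voom called 0, and DESeq2 gave no adjusted p for 6 of the 9.

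The clustered replication-dependent histone genes were read as a comparison list. Beside this and the lists below, 27.8% of all genes were called in SD vs. 2% HS, 13.9% higher. In MET+LEU vs. SD, 18.4% were called, 10.6% higher and 7.8% lower. Of 67 listed genes, 56 were tested, and 18 rose and 0 fell in SD vs. 2% HS, with a median log2 fold change of 0.33. In MET+LEU vs. SD, 2 rose and 32 fell, with a median of -0.45. Without MET+LEU replicate 6 the counts were 2 and 30. Among those that fell were H2bc12 (-1.23 ± 0.18 SE), H3c10 (-0.97 ± 0.15), H3c3 (-0.96 ± 0.13) and H4c6 (-0.96 ± 0.13), which encode core histones H2B, H3 and H4. In SD vs. 2% HS, H2aw rose by 0.76 ± 0.19, H3c8 by 0.53 ± 0.12, H2ac20 by 0.51 ± 0.13 and H2bc9 by 0.50 ± 0.16. Many of these genes are near-identical copies, so the split of reads between them is uncertain.

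**Figure D5:**
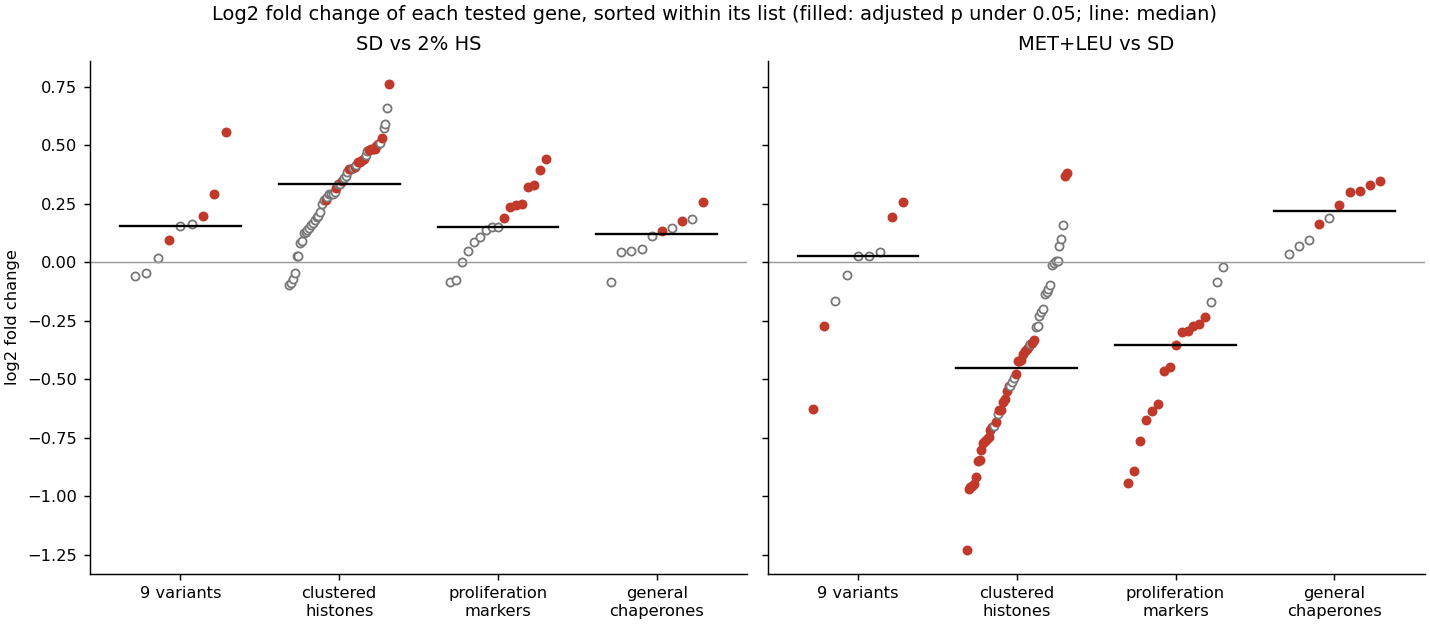
Log2 fold change of each tested gene of 4 lists, sorted within its list, for SD vs. 2% HS (left) and MET+LEU vs. SD (right), with filled points for an adjusted p under 0.05 and a line at the median. The 9 variants had medians of 0.16 and 0.03, against 0.33 and -0.45 for the clustered histones.

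Proliferation markers moved beside them. In SD vs. 2% HS, 8 of 17 were higher and 0 lower, and in MET+LEU vs. SD 14 were lower and 0 higher, also without replicate 6, with a median of -0.35, or -0.46 without it. Aurkb, a mitotic kinase, fell from 5.78 ± 0.633 to 2.97 ± 0.726 CPM (SD, n = 6 per group, edgeR adjusted p = 1.77e-06), and Ccnb1, Mcm5 and Ccna2 had log2 fold changes of -0.89, -0.76 and -0.67. In SD vs. 2% HS, Mcm5, a subunit of the replicative helicase, rose by 0.44 ± 0.10, Aurkb by 0.39 ± 0.13, Mcm6 by 0.33 ± 0.06 and Birc5 by 0.32 ± 0.12. The summed level of the 17 markers was 444 to 484 CPM in 2% HS, 461 to 562 CPM in SD, 431 to 522 CPM with MET, 410 to 433 CPM with LEU and 375 to 423 CPM with MET+LEU. H2ax and H2az1 also had their highest means in SD and were low in MET+LEU, and H3f3b did not follow this. The rise of H2ax in SD vs. 2% HS did not pass (edgeR adjusted p = 0.243). H2az1 in MET+LEU differed from 2% HS by 0.02, where 9 of the 17 markers were lower. Macroh2a2 also had its highest mean in SD (5.26 CPM), with 4.68 CPM in MET+LEU and 3.57 CPM in 2% HS. The part of cycling cells in these results was not tested.

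Of the other cell markers, 2 of 8 myotube markers rose and 2 fell in SD vs. 2% HS (Mylpf 0.18 and Des 0.13, Ckm -0.98 and Myh1 -0.39), and 3 rose in MET+LEU vs. SD (Tnnt3 0.82, Myh1 0.46 and Myh3 0.36). Without MET+LEU replicate 6 the same 3 rose, by 0.64, 0.36 and 0.21. Of the 4 markers of myoblasts or reserve cells, Pax7 fell in SD vs. 2% HS by a log2 fold change of -0.37 ± 0.04 SE. Top2a (-0.64) and Mki67 (-0.35) fell in MET+LEU vs. SD, where Pax7 and Myf5 did not pass. Top2a and Mki67 are also counted among the proliferation markers, so their fall is the same result as in that list. Of the 8 markers of other cells, 2 were tested and 0 passed in any comparison.

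The genes whose products place these variants in chromatin, or act on them there, were read as lists. Of the 8 genes of H3.3 deposition, which include the HIRA and DAXX-ATRX complexes, 0 passed in SD vs. 2% HS and 2 rose in MET+LEU vs. SD, Atrx (0.33 ± 0.07 SE, edgeR adjusted p = 0.0021) and Dek (0.26 ± 0.07, edgeR adjusted p = 0.00824). Without MET+LEU replicate 6 these were 0.22 (adjusted p = 0.00032) and 0.17 (adjusted p = 0.0379). Of the 21 genes of H2A.Z deposition and removal, 2 rose in SD vs. 2% HS, Ruvbl1 (0.26) and the acetyltransferase Kat5 (0.18), and 2 fell, the remodellers Srcap (-0.21) and Ep400 (-0.12). In MET+LEU vs. SD, Epc2 (0.22) and Morf4l1 (0.20) rose, by 0.14 and 0.13 without replicate 6, and Trrap (-0.14) fell. Of the 17 kinases, phosphatases and readers of H2A.X, Brca1 rose in SD (0.46 ± 0.12), while the kinase Atr (-0.33 ± 0.05) and the phosphatase Eya1 (-0.20 ± 0.07) fell. With MET+LEU, Brca1 fell (-0.53 ± 0.13) and Rad50 (0.34 ± 0.08) and Uimc1 (0.18 ± 0.06) rose. Without replicate 6, Rad50 was at 0.22 (adjusted p = 0.00232) and Uimc1 lost its call (0.11, adjusted p = 0.148).

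Further lists covered genes that handle free histones. Of 10 general histone chaperones, 3 rose in SD vs. 2% HS, Ptma (0.26), the FACT subunit Ssrp1 (0.17) and Set (0.13). In MET+LEU vs. SD 6 rose and 0 fell, or 5 without replicate 6, with a median of 0.22, or 0.14 without it. Ptma rose by 0.35 ± 0.08 SE, Anp32a by 0.33 ± 0.09, Nap1l1 by 0.31 ± 0.05 and Npm1 by 0.30 ± 0.05, and without replicate 6 by 0.23, 0.19, 0.24 and 0.24. Their summed level was 1640 CPM in MET+LEU replicate 6 and 1290 CPM at the median of that group. Of 10 genes of replication-coupled histone supply, 3 rose in SD vs. 2% HS, the CAF-1 subunits Chaf1b (0.48 ± 0.17) and Chaf1a (0.35 ± 0.09) and the chaperone Asf1b (0.33 ± 0.09). The same 3 fell in MET+LEU vs. SD (-0.53, -0.38 and -0.50), together with Lsm11 (-0.32), a part of the machinery that trims stem-loop histone mRNAs, and 1 gene rose. Of the other replication-independent variants, Cenpa, the H3 of centromeres, was lower in MET+LEU than in SD (5.84 ± 0.932 against 8.93 ± 1.7 CPM, SD, n = 6 per group, edgeR adjusted p = 0.00035), and the linker histone H1f10 did not pass.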

How the data were processed

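The authors extracted total RNA, depleted rRNA, made stranded libraries and sequenced them with 150-base paired reads. The deposited values are raw whole-number counts per Ensembl gene. The submitters' processing notes name STAR 2.7.6a, cutadapt 1.16, featureCounts 1.6.3 and the GRCm38 build, without a strand or multi-mapping setting. Symbols and exon lengths came from GENCODE M21, and 346 identifiers (0.0268% of the counts) had no symbol. Counts of 30 libraries (12784960 to 19604103) were analysed in R 4.3.3 with edgeR 4.0.16. Genes passed filterByExpr (minimum count 10, minimum total count 15), libraries were scaled by TMM, and 1 quasi-likelihood model of the 5 groups was fitted. Contrasts were adjusted by Benjamini-Hochberg over 15907 genes, with a threshold of 0.05. Alternatives included DESeq2 1.42.0 and limma-voom (limma 3.58.1), other scalings, no filter, a replicate block and leaving out each library. The fit was tested on simulated data, where genes of low count were mostly missed. It fell short of a first pass mark over all planted genes, and the mark was then set, with that result known, on the better counted genes alone.

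Values of the lists, named list genes and correlations without MET+LEU replicate 6 were added after the data were seen. The members and gene lists were chosen with earlier results of these data known. All members were named. From each list, up to 4 genes past the threshold with the largest change in SD vs. 2% HS or MET+LEU vs. SD were named, and for the 2 members with the widest spread of group means the 3 genes with the highest Pearson r. Aifm2, Gm8203 and Gm6722 were named after their values were seen. Near-identical copies were transcripts of at least 95% identity over at least 150 bases.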

Additional observations from a re-analysis of the deposited data

Results flagged for a closer look

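In MET+LEU, H2az2 was at 22.6 CPM in replicate 4, below the other 5 replicates, and its gap to the nearest of them exceeded Dixon's 95% critical value for 6 samples. It was the 1 group of 45 checked (9 genes in 5 groups) that did so, and chance flags about 1 in 20 groups.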

How the results depend on the processing

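Of the alternative log2 fold changes of the 9 variants over all 8 comparisons, 1535 stayed on the same side of the threshold, 30 lost the call, 2 gained it and 0 called values changed sign. The number of variants called ran from 3 to 5 for SD vs. 2% HS, 3 to 4 for MET+LEU vs. SD and 5 to 7 for MET+LEU vs. 2% HS. In MET vs. SD it was 1, the H2aj call from which nothing is read, and 0 to 1 when single libraries were left out, with 0 without MET replicate 1, 4 or 5. DESeq2 gave no adjusted p there for H2aj and Macroh2a2, nor in the interaction for 6 variants, so these counts were not made. In MET+LEU vs. LEU it was 1, but 0 in a model of only the groups compared, and 0 to 1 with single libraries left out, with 0 without LEU replicate 3. Counts not divided by length gave H3f3a shares of 54.6% in 2% HS, 50.4% in SD, 48.4% with MET, 48.6% with LEU and 46.1% in MET+LEU, Macroh2a1 shares of 93.7%, 90.7%, 91.4%, 91.1% and 91.8%, and H2az1 shares of 70.8% in 2% HS and 70.4% in LEU. No paired design was shown, and a weak one was not excluded. Same-numbered libraries of different groups had a mean correlation of 0.016 (lowest -0.091), against -0.003 for different numbers. Of 30 libraries, 9 correlated best with their own number. With the replicate block the counts of variants called stayed at 4 for SD vs. 2% HS and 4 for MET+LEU vs. SD. The block moved the calls among all genes from 25 to 52 in MET vs. SD and from 2931 to 3113 in MET+LEU vs. SD. Over all genes, calls ran with the settings other than single libraries left out from 25 to 120 in MET vs. SD, 88 to 216 in LEU vs. SD, 1421 to 3191 in MET+LEU vs. SD, 587 to 1622 in MET+LEU vs. MET, 311 to 1235 in MET+LEU vs. LEU and 1 to 31 in the interaction, and without MET+LEU replicate 6 they were 160, 269, 2175, 726, 457 and 10. Upper-quartile scaling moved the share of calls that were higher from 57.7% to 48.2% in MET+LEU vs. SD, from 52.1% to 45.4% in MET+LEU vs. 2% HS, from 63.7% to 49.8% in MET+LEU vs. MET and from 73.4% to 53.9% in MET+LEU vs. LEU. Counts of 44 to 97 limit Macroh2a2.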
